A study of Bos taurus with 40 samples.

Results

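The genes described here handle vitamin D and move calcium across epithelia. They are 7 genes picked by name: the vitamin D receptor VDR, the vitamin D-degrading enzyme CYP24A1, the calcium channels TRPV6 and TRPV5, the calcium-binding proteins CALB1 and S100G, and the calcium pump ATP2B1. All 7 were found among the 32671 genes of the count table, and all 7 were among the 20356 genes that passed the filter on low counts. The libraries are RNA-seq of bovine endometrium, the lining of the uterus, from synchronized heifers killed on day 5, 7, 13 or 16. The ipsilateral horn shares its side with the corpus luteum, the progesterone-secreting gland that forms after ovulation, and the contralateral horn is its partner. Each horn on each day gave 5 libraries, which makes 40 libraries in 8 groups, with no treatment and no genotype in the labels. The labels call each time a pregnancy day, while the design text counts from estrus, and neither says whether an embryo was there.

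Active vitamin D binds VDR, a nuclear receptor that pairs with a retinoid X receptor on DNA and switches on its target genes. CYP24A1 is among the best known of these targets, and the enzyme it encodes breaks active vitamin D down, which closes a feedback loop. In epithelia that transport calcium, such as those of gut and kidney, the ion enters at the apical side through TRPV6 or TRPV5, is carried through the cytosol by the calbindins CALB1 and S100G, and leaves at the basal side through pumps such as ATP2B1. The uterus expresses several of these genes, and in rodents the uterine level of S100G is known to follow the ovarian steroids.

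Libraries held 27.03 to 64.4 M reads assigned to genes, with the second deepest at 41.3 M. In the ipsilateral horn on day 5, the library of tag 3-175 was the deepest of all, and that of tag 8-1350 had a summed level of 6 smooth muscle markers of 4678 CPM (read counts scaled by TMM to a common library total), while the other 4 libraries of its group held 566 to 797 CPM. The ipsilateral day 16 library of tag 5-137 lay at -6.91 on the first principal component of the most variable genes. The other 4 of its group lay at -56.8 to -50.3. The animal tags in the titles paired the horns in the data in only some cases. The 2 libraries of a tag deviated together, at a correlation above 0.1, in 5 of 20 tags, with the highest at 0.861. The horns were compared without the tag, which treats the 2 libraries of those tags as independent too. Of 4 listed markers of the conceptus, 3 were in the count table. These were at or near 0, with at most 6 reads of PAG2 and 4 of TKDP1 in any library and 0 of CSH2. The marker IFNT was not in the count table, so its level is not known. All 9 epithelial markers were measured, and their summed level ran from 712 to 1738 CPM over the 40 libraries. Since the RNA is from homogenised tissue, fewer cells of a type and less RNA per cell cannot be told apart.

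Most of the 7 genes changed with time, as did most genes tested. Over the 4 days, 6 of the 7 genes changed in the ipsilateral horn and 5 of 7 in the contralateral horn, where 57.3% and 55.2% of all genes tested changed by the same test (edgeR quasi-likelihood, Benjamini-Hochberg adjusted p below 0.05). TRPV5 did not pass in either horn, and S100G did not pass in the contralateral horn. The members did not move as a block. From day 5 to day 7 TRPV6 and CALB1 fell in both horns, by day 13 VDR and CALB1 had risen in both horns, and between days 13 and 16 CYP24A1 rose in both horns.

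**Figure D1:**
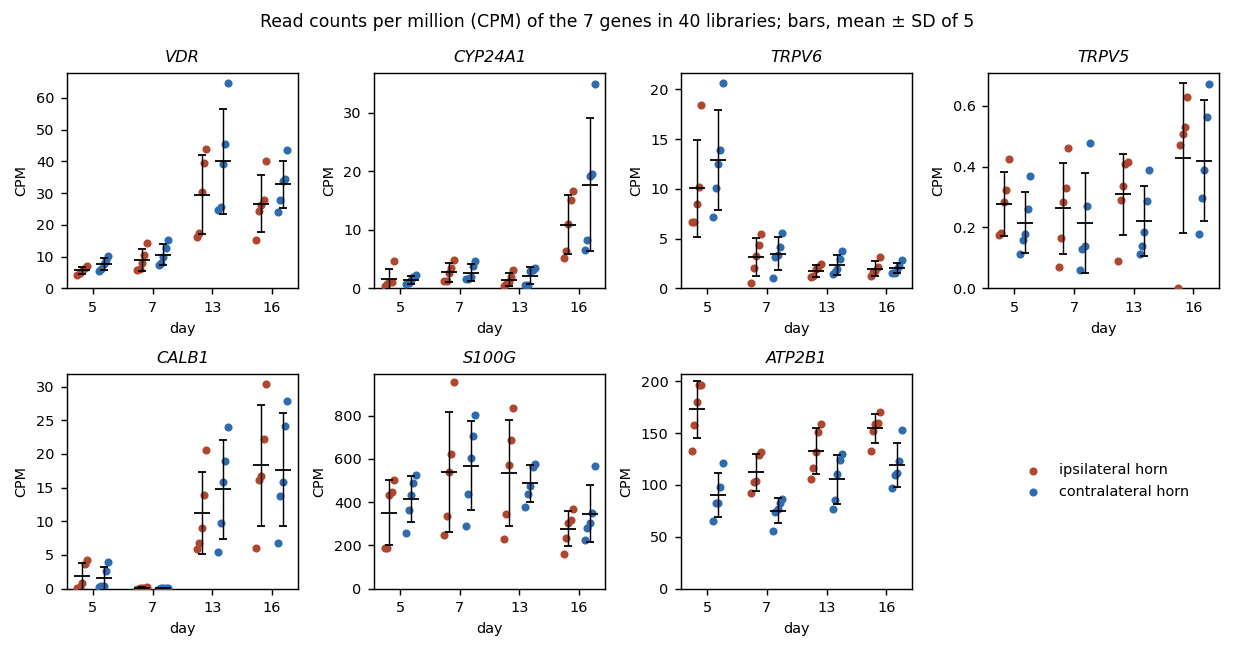
Level in CPM (linear axis from 0, one scale per gene) of the 7 genes in each of the 40 libraries by day, with the ipsilateral horn left of the contralateral horn; points are libraries and bars the mean ± SD of 5. VDR and CALB1 stand higher on days 13 and 16 than on days 5 and 7, CYP24A1 stands high on day 16, TRPV6 stands high on day 5, and ATP2B1 is higher in the ipsilateral horn on day 5.

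VDR, the receptor, stepped up between days 7 and 13 and stayed up. On day 5 its level was 4.19, 4.90, 5.28, 6.51 and 7.17 CPM in the ipsilateral horn, and 5.28, 6.07, 7.50, 8.78 and 10.01 CPM in the contralateral horn. On day 7 it was 5.78, 6.08, 7.81, 10.4 and 14.4 CPM in the ipsilateral horn, and 7.22, 7.88, 9.90, 12.8 and 15.1 CPM in the contralateral horn. The libraries of these first 2 days overlap in both horns, and none of them reaches the lowest library of day 13. On day 13 VDR was at 16.3, 17.5, 30.2, 39.6 and 43.8 CPM in the ipsilateral horn, and at 24.6, 25.7, 39.3, 45.5 and 64.7 CPM in the contralateral horn. On day 16 it was at 15.1, 24.4, 26.2, 27.7 and 40.2 CPM in the ipsilateral horn, and at 24.1, 27.8, 33.8, 34.4 and 43.6 CPM in the contralateral horn, within the span of day 13 or just under it.

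The rise of VDR from day 7 to day 13 was 3.31-fold in the ipsilateral horn, a log2 fold change of 1.73 ± 0.30 (SE; adjusted p = 3.10e-05). In the contralateral horn it was 3.78-fold, a log2 fold change of 1.92 ± 0.30 (adjusted p = 5.52e-06). The means were 29.5 ± 12.5 CPM on day 13 and 8.90 ± 3.59 CPM on day 7 in the ipsilateral horn (SD, n = 5 each), and 39.97 ± 16.5 CPM and 10.6 ± 3.33 CPM on the same days in the contralateral horn. Between days 5 and 7 the log2 fold change was 0.67 ± 0.30 in the ipsilateral horn and 0.49 ± 0.30 in the contralateral horn, and neither passed the test (adjusted p = 0.0877 and 0.260). From day 13 to day 16 the change was within -0.14 ± 0.29 and -0.29 ± 0.29 on the log2 scale.

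CYP24A1, which inactivates the hormone that VDR binds, rose at a later step than VDR. On day 5 its level was 0.413, 0.663, 1.04, 1.10 and 4.64 CPM in the ipsilateral horn, and 0.679, 0.850, 1.43, 1.99 and 2.32 CPM in the contralateral horn. The ipsilateral value of 4.64 CPM belongs to the deepest library, tag 3-175. On day 7 CYP24A1 ranged from 1.17 to 4.84 CPM in the ipsilateral horn and from 1.51 to 4.60 CPM in the contralateral horn. On day 13, when VDR was already high, CYP24A1 was at 0.416, 0.668, 1.13, 1.90 and 3.20 CPM in the ipsilateral horn, and at 0.603, 0.606, 3.03, 3.13 and 3.47 CPM in the contralateral horn. On day 16 it was at 5.18, 6.39, 11.03, 15.2 and 16.6 CPM in the ipsilateral horn, and at 6.61, 8.29, 19.1, 19.6 and 35.01 CPM in the contralateral horn. Every day 16 library exceeded every library of days 5, 7 and 13 in its horn.

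Against day 13, CYP24A1 on day 16 was 7.42-fold higher in the ipsilateral horn (log2 fold change 2.89 ± 0.64, adjusted p = 0.0138) and 8.16-fold higher in the contralateral horn (3.03 ± 0.63, adjusted p = 0.00884). Few genes changed at this step: 1.02% of all genes tested passed in the ipsilateral and 1.33% in the contralateral horn, and CYP24A1 was the single member among them in each. The ipsilateral call did not hold when only the 10 libraries of the 2 days entered the fit (log2 fold change 2.89, adjusted p = 0.0649). The ipsilateral library of tag 5-137, which stands apart on day 16, held the lowest CYP24A1 level of its group, and without the libraries that stand apart the ipsilateral change was 3.07 (adjusted p = 0.00284). The earlier steps did not pass, at 0.74 ± 0.60 and 0.87 ± 0.61 from day 5 to day 7 and -0.88 ± 0.61 and -0.29 ± 0.60 from day 7 to day 13 in the ipsilateral and contralateral horns. Without the day 5 library of tag 3-175, the ipsilateral change from day 5 to day 7 was 1.75 and passed (adjusted p = 0.0361).

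TRPV6, an apical calcium entry channel, was highest on day 5 and low from day 7 on. On day 5 it was at 6.63, 6.65, 8.47, 10.2 and 18.4 CPM in the ipsilateral horn, and at 7.17, 10.1, 12.5, 13.9 and 20.6 CPM in the contralateral horn. On day 7 it was at 0.571, 2.05, 3.27, 4.32 and 5.46 CPM in the ipsilateral horn, and at 1.01, 3.19, 3.38, 4.12 and 5.58 CPM in the contralateral horn. In both horns the highest day 7 library lay under the lowest day 5 library. The fall was 3.21-fold in the ipsilateral horn (log2 fold change -1.68 ± 0.41, adjusted p = 0.00234) and 3.72-fold in the contralateral horn (-1.90 ± 0.42, adjusted p = 0.00127). The highest ipsilateral day 5 value was again that of tag 3-175, and without the libraries that stand apart the ipsilateral fall was -1.23 and did not pass (adjusted p = 0.0513).

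After day 7 no change of TRPV6 between neighbouring days passed in the main fit, though the estimates from day 7 to day 13 were below 0 in both horns. It ranged from 1.09 to 2.41 CPM on day 13 and from 1.23 to 3.12 CPM on day 16 in the ipsilateral horn, and from 1.41 to 3.75 CPM and from 1.54 to 2.81 CPM in the contralateral horn. The log2 fold change from day 7 to day 13 was -0.84 ± 0.42 in the ipsilateral horn (adjusted p = 0.131) and -0.56 ± 0.41 in the contralateral horn (adjusted p = 0.318). The ipsilateral change passed once the lowest day 7 library, tag 2-1337, was left out (-1.10, adjusted p = 0.0298).

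TRPV5, the neighbour of TRPV6 in the RefSeq gene order on chromosome 4 and its closest relative, was barely present. It had 0 to 22 reads per library, with a median of 9, which is 0 to 0.672 CPM. Its group means lay between 0.215 ± 0.165 CPM (contralateral, day 7) and 0.427 ± 0.246 CPM (ipsilateral, day 16; SD, n = 5 each). No comparison passed for TRPV5. The widest change between neighbouring days, from day 13 to day 16 in the contralateral horn, was 0.91 with a 95% interval of -0.23 to 2.06 on the log2 scale. From day 5 to day 7, the step at which TRPV6 fell, its intervals were -1.22 to 1.09 in the ipsilateral horn and -1.15 to 1.16 in the contralateral horn, and changes within them were not detectable at this depth.

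CALB1, the larger of the 2 calbindins, had the widest range of the 7 genes, and its lowest point was day 7. On day 5 the libraries were uneven: 0.0531, 0.244, 0.784, 3.63 and 4.26 CPM in the ipsilateral horn, and 0.262, 0.339, 0.372, 2.62 and 3.91 CPM in the contralateral horn. On day 7 all were near 0, at 0, 0.0661, 0.111, 0.113 and 0.247 CPM in the ipsilateral horn, and at 0, 0.0346, 0.118, 0.120 and 0.130 CPM in the contralateral horn. These day 7 values rest on 0 to 8 reads per library in the ipsilateral horn. On day 13 CALB1 was at 5.93, 6.71, 9.06, 13.8 and 20.6 CPM in the ipsilateral horn, and at 5.36, 9.78, 15.8, 18.9 and 23.9 CPM in the contralateral horn. On day 16 it was at 5.95, 16.1, 16.8, 22.3 and 30.4 CPM in the ipsilateral horn, and at 6.72, 13.8, 15.8, 24.1 and 27.9 CPM in the contralateral horn. Every library of days 13 and 16 lay above every library of days 5 and 7.

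The rise of CALB1 from day 7 to day 13 was 98.7-fold in the ipsilateral horn (log2 fold change 6.62 ± 0.94, adjusted p = 1.19e-06) and 174-fold in the contralateral horn (7.44 ± 0.98, adjusted p = 2.76e-07). With so few reads on day 7 the size of these folds is loose. The 95% interval was 4.71 to 8.53 on the log2 scale in the ipsilateral horn and 5.45 to 9.44 in the contralateral horn. The fall from day 5 to day 7 was -3.96 ± 0.93 in the ipsilateral horn (adjusted p = 0.00142) and -4.15 ± 0.97 in the contralateral horn (adjusted p = 0.00236). It passed with any 1 library left out, and in the ipsilateral horn without the libraries that stand apart (-4.59). It did not pass in limma-voom, where adjusted p was 0.203 in the ipsilateral and 0.177 in the contralateral horn. The 2 high day 5 libraries of each horn carry most of the day 5 mean, and they bear tags 1-315 and 4-184 in the ipsilateral horn but 7-300 and 3-175 in the contralateral horn. From day 13 to day 16 the change was 0.70 ± 0.66 and 0.26 ± 0.65, and neither passed.

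**Figure D2:**
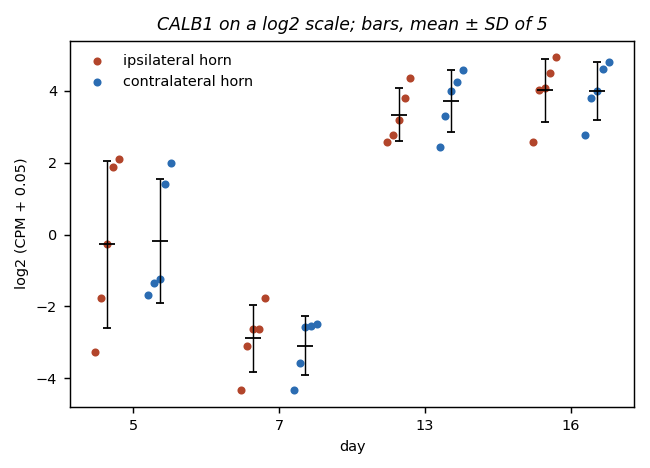
CALB1 in each library as log2 of CPM plus 0.05, by day, with the ipsilateral horn left of the contralateral horn; bars are the mean ± SD of 5. Day 5 is spread wide in both horns, all day 7 libraries lie low, with 1 library of each horn at 0 reads, and the libraries of days 13 and 16 lie above all those of days 5 and 7.

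S100G, the smaller calbindin, behaved unlike CALB1: it was well expressed on every day and no step between neighbouring days passed. In the ipsilateral horn its mean was 352 ± 152, 540 ± 277, 535 ± 247 and 277 ± 81.2 CPM on days 5, 7, 13 and 16 (SD, n = 5 each). The contralateral means were 414 ± 107, 569 ± 206, 487 ± 84.7 and 346 ± 132 CPM on the same days. Libraries of 1 group differed by several fold, such as 247, 337, 541, 621 and 956 CPM in the ipsilateral horn on day 7. The largest of its neighbouring steps was the ipsilateral one from day 13 to day 16, -0.95 ± 0.35 on the log2 scale (adjusted p = 0.210). The test for any change over the 4 days passed in the ipsilateral horn (adjusted p = 0.0384) and not in the contralateral horn (0.272). That ipsilateral call was lost when any of 10 of the 20 ipsilateral libraries was left out (adjusted p up to 0.0923): tags 6-338, 2-1337 and 4-064 of day 7, 5-140, 4-1314 and 8-275 of day 13, and 3-155, 5-137, 7-107 and 8-245 of day 16. It was also lost without the libraries that stand apart (0.0644).

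ATP2B1, a plasma membrane calcium ATPase that pumps the ion out of the cell, differed with day and, on the first 2 days, with horn. On day 5 it was at 133, 158, 180, 196 and 197 CPM in the ipsilateral horn, and at 65.2, 82.3, 82.8, 98.2 and 121 CPM in the contralateral horn. On day 7 it was at 92.6, 103, 104, 129 and 132 CPM in the ipsilateral horn, and at 55.5, 73.5, 77.0, 82.5 and 86.6 CPM in the contralateral horn. On both days the 2 horns do not overlap, and in the ipsilateral horn the 2 days do not overlap either. On day 13 the levels were 105, 117, 131, 151 and 159 CPM in the ipsilateral horn, and 76.7, 85.5, 111, 124 and 130 CPM in the contralateral horn. On day 16 they were 132, 152, 159, 160 and 170 CPM in the ipsilateral horn, and 96.5, 109, 112, 123 and 153 CPM in the contralateral horn, with the horns overlapping on both days.

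Over time ATP2B1 fell between days 5 and 7 in the ipsilateral horn, by 0.63 ± 0.16 on the log2 scale (1.54-fold, adjusted p = 0.00290), and without the libraries that stand apart by 0.66 (adjusted p = 0.0133). The contralateral change at that step was -0.26 ± 0.16 and did not pass (adjusted p = 0.256). From day 7 to day 13 it rose 1.40-fold in the contralateral horn (0.49 ± 0.16, adjusted p = 0.0155), a call that was lost without either of 2 day 13 libraries, tags 8-275 (adjusted p = 0.0602) and 4-1314 (0.0535), or the day 7 library of tag 4-064 (0.0615). The ipsilateral change at the same step was 0.24 ± 0.16 (adjusted p = 0.256).

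Set side by side, the steps give these counts. From day 5 to day 7, 3 of 7 members fell in the ipsilateral horn (TRPV6, CALB1 and ATP2B1) and 2 of 7 in the contralateral horn (TRPV6 and CALB1), where 30.7% and 19.8% of all genes passed in either direction. From day 7 to day 13, 2 of 7 rose in the ipsilateral horn (VDR and CALB1) and 3 of 7 in the contralateral horn (VDR, CALB1 and ATP2B1), against 29.8% and 32.9% of all genes. With 7 genes, shares this near those of all genes are no result about the members as a set. The median log2 fold change of the 7 genes was -0.07 and 0.00 in the ipsilateral and contralateral horns from day 5 to day 7, against -0.01 and 0.00 over all genes. It was 0.22 and 0.03 from day 7 to day 13, against 0.01 and 0.01, and 0.22 and 0.17 from day 13 to day 16, against 0.00 in both horns.

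**Figure D3:**
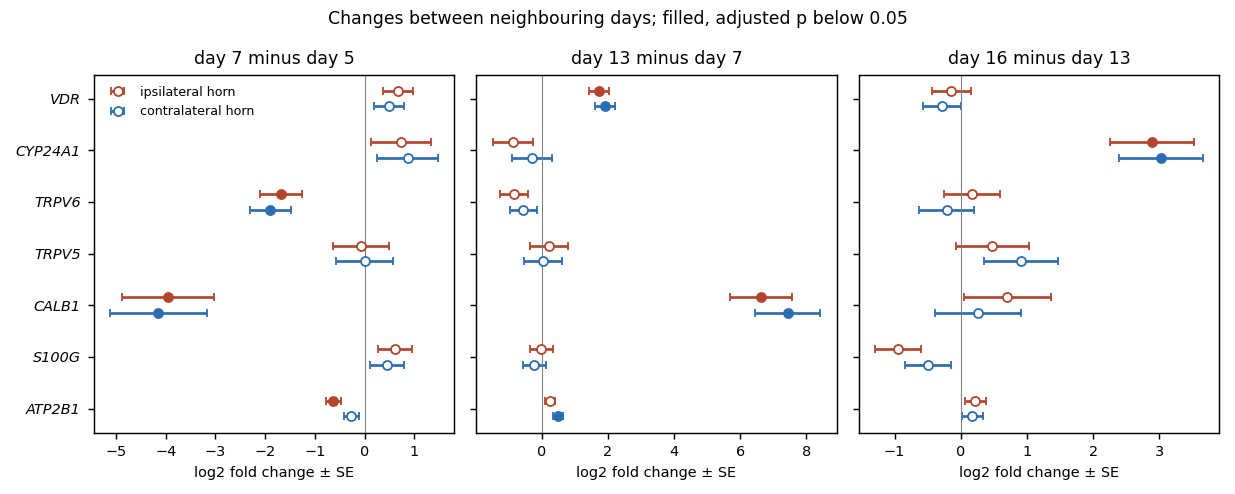
Log2 fold changes ± SE of the 7 genes between neighbouring days, later day over earlier day, in the ipsilateral horn (upper point of each pair) and the contralateral horn (lower point); filled points passed at adjusted p below 0.05. TRPV6 and CALB1 are filled below 0 from day 5 to day 7, VDR and CALB1 above 0 from day 7 to day 13, and CYP24A1 above 0 from day 13 to day 16, in both horns.

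Markers of the tissue's cell types were counted at the same steps. From day 5 to day 7, 5 of 9 epithelial markers rose and 1 fell in the ipsilateral horn, while 6 of 9 stromal and 6 of 6 smooth muscle markers fell. The ipsilateral smooth muscle sum on day 5 was 4678 CPM in tag 8-1350 and 566 to 797 CPM in the rest of its group. On day 7 it was 206 to 448 CPM. Marker counts without tag 8-1350 were not taken. In the contralateral horn, 2 of 9 epithelial markers rose and 1 fell, 3 of 9 stromal markers fell and 2 of 6 smooth muscle markers fell. Of 36 markers of epithelium, gland, stroma, smooth muscle, endothelium and immune cells, 18 passed in the ipsilateral and 8 in the contralateral horn. At this step 30.7% and 19.8% of all genes passed in the ipsilateral and contralateral horns. The contralateral share is near that of all genes and is no result about the markers. The summed stromal level was 9849 to 19334 CPM on day 7 and 17683 to 26286 CPM on day 5 in the ipsilateral horn. From day 7 to day 13, 2 of 9 epithelial markers rose in both horns, 3 fell in the ipsilateral and 2 in the contralateral horn, and 1 of 2 gland markers rose in both. Of all genes, 29.8% passed at this step in the ipsilateral and 32.9% in the contralateral horn. From day 13 to day 16, the step of CYP24A1, 1.02% of all genes passed in the ipsilateral and 1.33% in the contralateral horn. Of the epithelial, gland, stromal, smooth muscle, endothelial and immune markers tested (36 in all), 0 passed in either direction in either horn by edgeR or DESeq2, and 1 in each horn had an unadjusted p under 0.05. With so few genes past the threshold, 0 of 36 is no result about the markers. The part of the marker changes in those of TRPV6, CALB1 and ATP2B1 was not tested.

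The horn comparison asked whether these genes differ by side. ATP2B1 was the single member that passed on any day, and it was higher in the ipsilateral horn. A horn difference over the 4 days together was not tested. On day 5 it averaged 173 ± 27.4 CPM in the ipsilateral horn and 89.9 ± 21.1 CPM in the contralateral horn (SD, n = 5 each), a 1.92-fold difference (log2 fold change 0.94 ± 0.16, adjusted p = 4.83e-05). On day 7 the means were 112 ± 17.5 CPM in the ipsilateral horn and 75.0 ± 11.98 CPM in the contralateral horn, a 1.49-fold difference (0.58 ± 0.16, adjusted p = 0.0125). On day 13 the log2 difference was 0.33 ± 0.16 (adjusted p = 0.255) and on day 16 it was 0.38 ± 0.16 (adjusted p = 0.199). So 1 of 7 members passed on day 5, 1 of 7 on day 7 and 0 of 7 on days 13 and 16, while 22.7%, 11.7%, 5.73% and 4.53% of all genes passed on those days. On days 13 and 16 DESeq2 also called 0 of 7, and 1 of 7, ATP2B1, had an unadjusted p under 0.05. A call on day 5 and none on day 13 does not show that the horn effect changed. In the test of a change of the horn difference with day, 0 of 7 members and 0% of all genes passed by edgeR. DESeq2 called 0 as well. At an unadjusted p under 0.05 the edgeR counts were 1 of 7, ATP2B1, and 572 of 20356.

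The day 5 difference of ATP2B1 passed in each alternative tried, with log2 fold changes from 0.84 to 1.07. The day 7 difference did not pass without the contralateral library of tag 4-064 (0.49, adjusted p = 0.0567), nor in a fit with the microRNA and tRNA read share as a term (0.47, adjusted p = 0.324). On day 5, 6 of 9 epithelial markers were lower in the ipsilateral horn and 0 were higher, with sums of 712 to 1054 CPM in the ipsilateral and 1065 to 1493 CPM in the contralateral horn. Of all genes, 22.7% passed between horns on day 5, in either direction. On the same day the mean share of reads in microRNA and tRNA genes was 0.0112% in the ipsilateral and 0.00885% in the contralateral horn. With that share in the fit the day 5 difference was 0.84 (adjusted p = 0.00714), and the part of the epithelial shift was not tested.

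For the other 6 members the horns did not differ beyond the spread between libraries on any day. The intervals still leave room. For VDR the log2 difference was -0.43, -0.25, -0.44 and -0.29 on days 5, 7, 13 and 16, with 95% intervals from -1.04 at the lowest to 0.36 at the highest. For S100G it was -0.24, -0.08, 0.14 and -0.32, and for TRPV6 it was -0.35, -0.14, -0.41 and -0.03. For CYP24A1 the differences were 0.15 (-0.75 without the libraries that stand apart), 0.02, -0.57 and -0.70, and the day 16 interval ran from -1.89 to 0.48. CALB1 had the widest intervals, from -2.16 to 3.01 on day 7, where reads were few.

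**Figure D4:**
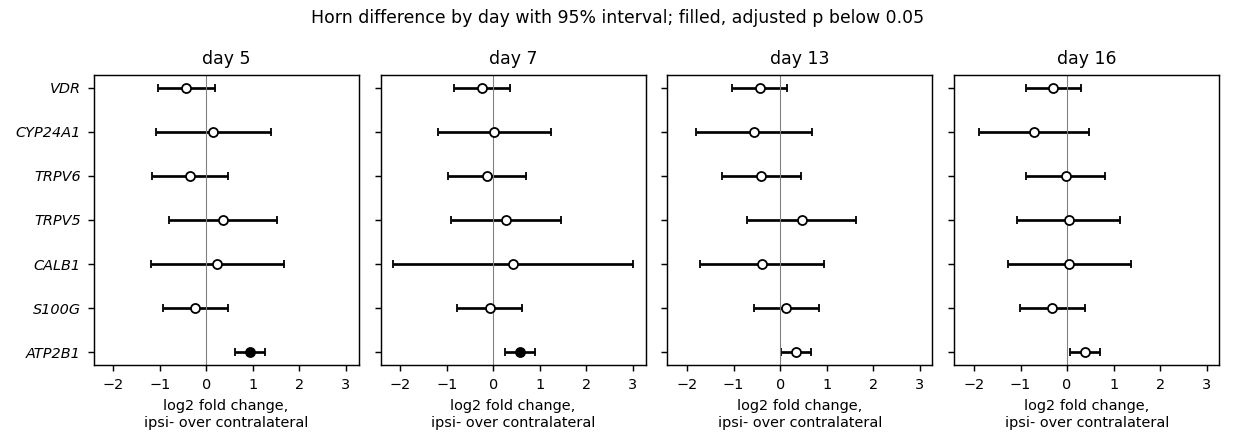
Log2 fold change of the ipsilateral over the contralateral horn for the 7 genes on each of the 4 days, with 95% intervals; filled points passed at adjusted p below 0.05. Only ATP2B1 on days 5 and 7 is filled, and the intervals of the other 6 genes cross 0 on each day.

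The members differed in how far they moved together. Over the 8 group means of log2 CPM, CALB1 and VDR had a Pearson correlation of 0.84, VDR and TRPV6 of -0.80, and CYP24A1 and VDR of 0.49. Within groups, over the deviations of the 40 libraries from their group means, the same pairs stood at -0.03, -0.02 and -0.08. Other pairs stood further from 0. Over all pairs of members the within-group values ran from -0.46 (TRPV5 and ATP2B1) to 0.31 (CYP24A1 and TRPV6). The points of the first kind share days and horns, and those of the second share libraries and their depth.

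The genes whose group means followed each member most closely were looked up among 3874 genes with a level and range large enough to compare, as Pearson correlations over the 8 group means. Genes picked this way share a member's steps or horn difference largely through that choice. Their tests, given for these genes here, are a description and no separate support. VDR was followed by GABARAPL2, SLC5A1, a sodium-glucose cotransporter, and KLHDC4, at 0.996 to 0.998. SLC5A1 shared the step from day 7 to day 13, at 2.79 ± 0.41 on the log2 scale in the ipsilateral and 3.17 ± 0.42 in the contralateral horn. CYP24A1 was followed by SLC16A6, KANK3 and FAM213A at 0.957 to 0.996, and of these FAM213A passed from day 13 to day 16 in both horns (1.56 ± 0.28 and 1.60 ± 0.28). TRPV6 was followed by CRABP2, a retinoic acid-binding protein, the Wnt pathway modulator DKK3 and the replication helicase subunit MCM6 at 0.994 to 0.998. All of these 3 fell from day 5 to day 7 in both horns.

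CALB1 was followed by SOWAHC, the coagulation factor F5 and the phosphatase PTPRR at 0.992 to 0.993, and PTPRR rose by 2.70 ± 0.28 and 3.09 ± 0.28 from day 7 to day 13 in the ipsilateral and contralateral horns. S100G was followed by MTHFD1L, ANGPTL4 and PHGDH, the first enzyme of serine synthesis, at 0.977 to 0.989. Unlike S100G itself, PHGDH fell from day 13 to day 16 by the test, at -1.96 ± 0.28 in the ipsilateral and -1.91 ± 0.28 in the contralateral horn. ATP2B1 was followed by FBXO30 and HCFC2 at 0.991 and 0.985. Both were higher in the ipsilateral horn on day 5, by 1.26 and 1.02 on the log2 scale, as the choice by group means favours. TRPV5, with so few reads, had no follower above 0.895.

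Around the 7 genes, a wider list of 83 genes of vitamin D metabolism and of calcium entry, buffering, extrusion, stores and hormones was counted. Of these, 82 were in the table and 75 were tested. CASR, PTH, CALCA, CALCR, FGF23, CLDN2 and ATP2B3 were too low to test. From day 5 to day 7, 21 of 75 passed in the ipsilateral horn (9 higher, 12 lower) and 13 in the contralateral horn (8 higher, 5 lower), which is 28% and 17.3%, against 30.7% and 19.8% of all genes. From day 7 to day 13 the counts were 23 (9 higher, 14 lower) and 28 (14 higher, 14 lower), or 30.7% and 37.3%, against 29.8% and 32.9% of all genes. From day 13 to day 16, 0 passed in the ipsilateral horn by edgeR, where 9 had an unadjusted p under 0.05 and DESeq2 called 2, and 1 passed in the contralateral horn. At this step 1.02% and 1.33% of all genes passed in the ipsilateral and contralateral horns. Over the 4 days, 58.7% of the list changed in the ipsilateral and 53.3% in the contralateral horn, near the shares over all genes, and the list's median log2 fold change between neighbouring days stayed between -0.16 and 0.12.

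Of the 18 genes of vitamin D metabolism and signalling, 6 passed from day 5 to day 7 in each horn, or 33.3%, against 30.7% of all genes in the ipsilateral and 19.8% in the contralateral horn. CYP27A1, a mitochondrial hydroxylase that can make the precursor of active vitamin D, rose to 354 ± 83.3 CPM on day 7, against 150 ± 23.2 CPM on day 5, in the ipsilateral horn (log2 fold change 1.24 ± 0.18, adjusted p = 4.19e-06). In the contralateral horn it rose to 387 ± 89.7 CPM, against 203 ± 49.9 CPM (0.93 ± 0.18, adjusted p = 0.000297), and in both horns the 2 days do not overlap. LRP2, or megalin, an endocytic receptor that takes up vitamin D bound to its carrier, rose at the same step by 1.42 ± 0.43 in the ipsilateral and 1.36 ± 0.43 in the contralateral horn (adjusted p = 0.0116 and 0.0225). Its call was lost with only the 10 libraries of the 2 days in the fit, in both horns (adjusted p = 0.0688 and 0.0628), without the libraries that stand apart in the ipsilateral horn (0.141), and without contralateral tag 1-315 of day 5 (0.0678) or tag 4-064 of day 7 (0.0843).

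Other genes of this list were named after their values were seen. DAB2, an adaptor for megalin, fell from day 5 to day 7 by 0.89 ± 0.14 and 0.78 ± 0.14 on the log2 scale in the ipsilateral and contralateral horns. CYP2R1, the liver's main enzyme for the first step of vitamin D activation, fell from day 7 to day 13 by 0.48 ± 0.15 and 0.72 ± 0.15, a step at which VDR rose, and the ipsilateral call was lost without the day 13 library of tag 6-203 (adjusted p = 0.0538) and with only the 10 libraries of the 2 days (0.0577). CYP3A4, which also breaks vitamin D down, rose from day 7 to day 13 in the contralateral horn (1.39 ± 0.46, adjusted p = 0.0171), and that call was lost without tag 2-371 of day 7 (0.0506) or tag 6-203 of day 13 (0.0893) and with only those 10 libraries (0.0800).

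Among 17 tested genes of calcium entry, 8 passed from day 7 to day 13 in the ipsilateral horn (4 higher, 4 lower) and 11 in the contralateral horn (7 higher, 4 lower), where 29.8% and 32.9% of all genes passed. TRPV4, a relative of TRPV5 and TRPV6 that opens to cell swelling and heat, fell to 2.47 ± 0.55 CPM on day 13, against 5.22 ± 1.17 CPM on day 7, in the ipsilateral horn (log2 fold change -1.08 ± 0.24, adjusted p = 0.000711). In the contralateral horn it fell to 2.54 ± 0.74 CPM, against 6.61 ± 1.26 CPM (-1.38 ± 0.24, adjusted p = 2.79e-05). In both horns the 2 days do not overlap, so TRPV4 fell one step later than TRPV6. CLDN16, a tight junction protein of the paracellular path for divalent ions, rose to 5.82 ± 1.36 CPM on day 7, against 2.01 ± 0.43 CPM on day 5, in the ipsilateral horn (1.53 ± 0.33, adjusted p = 0.000618), while the contralateral change of 0.72 ± 0.33 did not pass (adjusted p = 0.122). TRPM7, a channel kinase for magnesium and calcium that was named after its values were seen, was higher in the ipsilateral horn on each of the 4 days, by 0.94, 0.75, 0.58 and 0.57 on the log2 scale, with an SE of 0.09 and no overlap of the horns on any day. Since TRPM7 was named for these values, they are a description only.

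**Figure D5:**
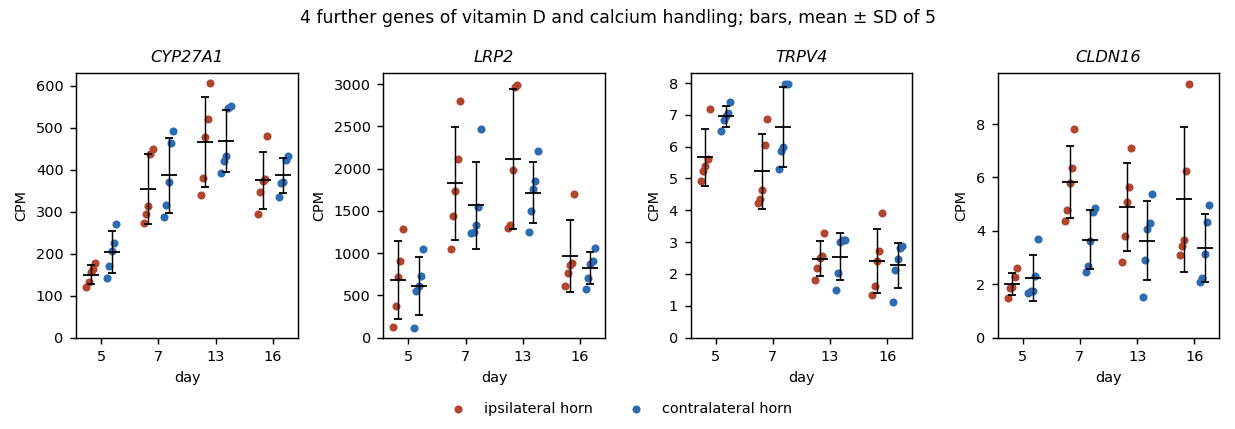
CPM (linear axis from 0) of 4 further genes, CYP27A1, LRP2, TRPV4 and CLDN16, in each library by day, with the ipsilateral horn left of the contralateral horn; bars are the mean ± SD of 5. CYP27A1 stands higher from day 7 on, TRPV4 stands lower on days 13 and 16, and CLDN16 rises above its day 5 level in the ipsilateral horn on day 7.

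Of 8 tested buffer genes, 4 fell from day 7 to day 13 in both horns and 0 rose, while 29.8% of all genes in the ipsilateral and 32.9% in the contralateral horn passed in either direction. Among them are CALR, CANX and HSPA5, calcium-binding chaperones of the endoplasmic reticulum, named after their values were seen. Their log2 fold changes were -0.53 ± 0.09, -0.79 ± 0.11 and -0.62 ± 0.10 in the ipsilateral horn. The contralateral values were -0.66 ± 0.09, -0.84 ± 0.11 and -0.76 ± 0.10. In none of these 3 genes did the libraries of the 2 days overlap in either horn. As the genes were named for such values, this describes them and adds no support, and overlap was not counted over all genes.

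Of 10 tested extrusion genes other than ATP2B1, 5 passed from day 5 to day 7 in the ipsilateral horn (1 higher, 4 lower) and 1, which was lower, in the contralateral horn, where 30.7% and 19.8% of all genes passed. SLC8B1, the mitochondrial sodium-calcium exchanger, named after its values were seen, rose from day 7 to day 13 by 0.79 ± 0.12 in each horn. It averaged 291 ± 42.8 CPM on day 13 and 169 ± 21.8 CPM on day 7 in the ipsilateral horn, and 301 ± 41.9 and 174 ± 25.05 CPM in the contralateral horn. ATP2B2, another calcium pump of the ATP2B1 family, and the exchanger SLC24A3 passed as lower from day 5 to day 7 in the ipsilateral horn (-3.05 ± 0.65 and -2.85 ± 0.58) and as higher in that horn on day 5 (2.81 ± 0.64 and 2.58 ± 0.57). Both rest on the library of tag 8-1350, the one rich in smooth muscle markers, which held 74.7 CPM of ATP2B2 and 216 CPM of SLC24A3. Without it the day change was -0.26 and -0.68 and the horn difference 0.02 and 0.41, and none passed. ATP2B1 does not share this: its horn difference on day 5 was 0.97 without that library.

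Of 14 store and 8 hormone genes tested, 3 and 2 passed from day 7 to day 13 in the ipsilateral horn, and 4 and 3 in the contralateral horn. These are 21.4% and 25% in the ipsilateral horn, against 29.8% of all genes. In the contralateral horn they are 28.6% and 37.5%, against 32.9% of all genes. RYR3, a calcium release channel, fell from day 5 to day 7 in the ipsilateral horn (-1.53 ± 0.51, adjusted p = 0.0203), and so did CACNA1C of the entry list, a voltage-gated channel (-1.34 ± 0.32, adjusted p = 0.00180). On day 5 CACNA1C was at 109 CPM in the ipsilateral library of tag 8-1350 and at 26.1 to 62.4 CPM in the other 4, and without that library its log2 fold change was -1.005 (adjusted p = 0.0160). The RYR3 call was lost without tag 8-1350 of day 5 (adjusted p = 0.0709) and without any of 3 day 7 libraries, tags 6-338 (0.0583), 2-1337 (0.0544) and 2-371 (0.0566). STC2, a stanniocalcin, rose from day 7 to day 13 by 1.31 ± 0.43 in the ipsilateral and 1.46 ± 0.42 in the contralateral horn (adjusted p = 0.0189 and 0.00712). The ipsilateral call of STC2 was lost without tag 5-117 of day 7 (0.0650) or tag 6-203 of day 13 (0.0931). Between horns, 20 of the 75 genes passed on day 5 (13 higher and 7 lower in the ipsilateral horn), 9 on day 7 (4 higher, 5 lower), and 3 on each of days 13 and 16 (2 higher, 1 lower). These are 26.7%, 12%, 4% and 4% of the list, against 22.7%, 11.7%, 5.73% and 4.53% of all genes.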

How the data were processed

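The deposited file holds raw read counts per gene, made by the authors with HISAT2 on genome build UMD3.1 and featureCounts after FastQC, per the submitters' processing notes. No label gives their versions, the annotation or the strand setting. As the labels' protocols state, libraries were stranded mRNA libraries from endometrial homogenate treated with DNase. The mitochondrial genome, 1 row, with 0.0812% to 0.578% of reads, was left out of library totals and of the tests. 27 gene names had turned into dates and were not used, and 0 columns were identical. Libraries were grouped by day and horn as labelled. They are assumed to be separate animals within a group.

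CPM values use TMM-scaled library sizes and are not divided by gene length, so levels were not compared between genes. Log2 CPM used a prior count of 2. Fold changes and adjusted p come from edgeR 4.0.16 quasi-likelihood tests (R 4.3.3) with TMM factors, filterByExpr, 8 group means over 40 libraries and Benjamini-Hochberg adjustment over 20356 genes, with 0.05 as the threshold. SE is the log2 fold change over the square root of F. The fit was tested on simulated counts with libraries drawn as independent, which does not cover paired horns or libraries that stand apart. Without a length table or a genome, sequences and coordinates were not used here. Gene neighbours come from RefSeq on ARS-UCD2.0.

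The animal tag was not a term of the fit, because an earlier pass over these data had shown that tags pair the horns in few cases. The check, over 13785 genes, gave a correlation above 0.1 in 5 of 20 tags (-0.403 to 0.861, median -0.03). Among the 5 contralateral libraries of the same day, 5 of 20 ipsilateral libraries matched their own tag best, a count near what chance alone gives.

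The 7 members and all lists were chosen with earlier results of these data known. Named besides the members are up to 10 genes of the wider list with the largest change among those past the threshold between neighbouring days with average log2 CPM not below 0, and the 3 genes most like each member, with average log2 CPM not below 2 and a range of group means of at least 1. Some genes that met these rules are not reported here. Alternatives were RLE scaling, DESeq2 1.42.0, no filter, the 10 libraries of a comparison, the tag as block, limma-voom (limma 3.58.1), the share of 801 microRNA and 1594 tRNA genes or depth as covariate, and each library left out. Depth as covariate, limma-voom with independent libraries and fits without the 3 libraries that stand apart were added after seeing the data.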

Additional observations from a re-analysis of the deposited data

Results flagged for a closer look

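In 2 of 56 groups of 5 libraries (7 genes in 8 groups), 1 library lay apart from the other 4 by Dixon's test on log2 CPM plus 0.05, and chance alone flags about 1 group in 20. Both are of TRPV5. In the ipsilateral horn on day 13, the library of tag 6-203 had 0.0911 CPM and the other 4 had 0.291 to 0.416 CPM. In the ipsilateral horn on day 16, the library of tag 5-137 had 0 CPM and the other 4 had 0.472 to 0.629 CPM. This ipsilateral library of tag 5-137 also stood apart on the first principal component of the most variable genes. With at most 22 reads of TRPV5 in any library, the part of counting error in both was not tested.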

How the results depend on the processing

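For 10 of 13 comparisons the count of members that passed stayed within 1.5 times under the alternatives run. The exceptions were the day 7 horn difference, with 0 in place of 1 with the microRNA and tRNA share as covariate and 0 to 1 with libraries left out; the ipsilateral change from day 13 to day 16, with 0 in place of 1 with the 10 libraries of those days alone; and the contralateral change from day 5 to day 7, with 1 in place of 2 under limma-voom with independent libraries, and 1 with those 10 libraries, where CALB1 did not pass the filter on low counts. Of 1834 values of members under alternatives, 1729 kept direction and side of the threshold, and 79 changed direction, none of them past the threshold in either fit.

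The pairing of horns by tag was tried as a replicate block, a fixed term for horns and a random one in limma-voom for days (consensus correlation 0.0244). Under it 1 member in place of 2, TRPV6 without CALB1, passed from day 5 to day 7 in the contralateral horn, and CALB1 was lost in the ipsilateral horn too (-2.91, adjusted p = 0.204), as in limma-voom without the block. S100G lost its ipsilateral change over the 4 days (adjusted p = 0.0696). Horn differences that changed direction were CALB1 on day 5 (-0.15), CYP24A1 on days 5 and 7 (-0.31 and -0.011) and TRPV5 on day 16 (-0.025). TRPV5 also did so from day 13 to day 16 in the ipsilateral horn (-0.062) and from day 5 to day 7 in the contralateral horn (-0.17), and with independent libraries in limma-voom (-0.063 and -0.17). No other call of a member changed under the block; of the wider list, ATP2B2 and SLC24A3 lost theirs between horns on day 5 and, in the ipsilateral horn, from day 5 to day 7 and over the 4 days, and CACNA1C lost that between horns on day 5 (adjusted p = 0.0628).

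Other changes of direction, in log2 fold change, were these. The microRNA and tRNA share as covariate gave S100G 0.031 on day 5 and 0.24 on day 7, VDR 0.20 on day 7 and CYP24A1 0.084 on day 13 between horns. Depth as covariate gave CYP24A1 -0.36 on day 5 and TRPV6 0.013 on day 16. No filter gave CYP24A1 -0.013 on day 7 between horns, S100G 0.016 from day 7 to day 13 in the ipsilateral horn and TRPV5 -0.0044 from day 5 to day 7 in the contralateral horn. Without the 3 libraries that stand apart, CYP24A1 was at -0.75 and ATP2B2 at -0.099 between horns on day 5, CALB1 at -0.066 on day 16, and from day 13 to day 16 in the ipsilateral horn VDR was at 0.001 and TRPV6 at -0.045. The cause was not tested.

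Leaving out 1 library at a time turned the direction of these changes, none called. Between horns CALB1 ranged from -0.36 to 0.98 on day 5, -0.086 to 0.70 on day 7 and -0.25 to 0.24 on day 16, and CYP24A1 from -0.86 to 0.39 on day 5 and -0.30 to 0.31 on day 7. S100G ranged from -0.38 to 0.11 on day 7 and -0.084 to 0.31 on day 13, TRPV5 from -0.016 to 0.80 on day 7 and -0.18 to 0.32 on day 16, and TRPV6 from -0.43 to 0.13 on day 7 and -0.28 to 0.12 on day 16. In the ipsilateral horn TRPV5 ranged from -0.37 to 0.16 from day 5 to day 7 and -0.011 to 0.51 from day 7 to day 13, S100G from -0.23 to 0.29 from day 7 to day 13, TRPV6 from -0.045 to 0.31 and VDR from -0.34 to 0.044 from day 13 to day 16. In the contralateral horn TRPV5 ranged from -0.52 to 0.28 from day 5 to day 7 and -0.27 to 0.55 from day 7 to day 13, and TRPV6 from -0.36 to 0.028 from day 13 to day 16.

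Counts over all genes moved more. With the microRNA and tRNA share as covariate, 2240, 231, 110 and 258 genes passed between horns on days 5, 7, 13 and 16, against 4628, 2386, 1166 and 922. With 10 libraries alone, 2883 passed on day 5 and 742 on day 13, and 22 in place of 208 from day 13 to day 16 in the ipsilateral horn. DESeq2 gave 1790 on day 13 and 1455 on day 16 between horns, and 438 and 533 in the ipsilateral and contralateral horns from day 13 to day 16, against 208 and 271. Without the 3 libraries, 3609 in place of 6245 passed from day 5 to day 7 and 481 in place of 208 from day 13 to day 16 in the ipsilateral horn. With libraries left out, counts ran from 1461 to 3024 on day 7, 657 to 1299 on day 13 and 550 to 1090 on day 16 between horns, and from 109 to 335 and 124 to 287 from day 13 to day 16 in the ipsilateral and contralateral horns. Read counts were few for TRPV5 and for CALB1 on day 7, which limits their precision.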
